A study of Mus musculus with 6 samples.

Results

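The genes described here make sialic acid, attach it to sugar chains, and build and degrade gangliosides, the sialic acid-bearing glycolipids of cell membranes. They were chosen by name, though with earlier results of these data known. The list held 36 genes, and 35 of them had a row in the deposited table of 30462 genes. St6galnac1 was not analysed here. St6galnac2 had 2 rows, one for ENSMUSG00000057286 and a second entry, ENSMUSG00000110170, that lies inside the same locus. The genes therefore gave 36 entries, which together held 0.2899% to 0.3082% of the fragments of a library.

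Sialic acid is made in the cytosol from UDP-GlcNAc, activated in the nucleus to CMP-sialic acid, and carried into the Golgi. There, sialyltransferases add it to galactose, N-acetylgalactosamine (GalNAc) or another sialic acid, each family making a defined linkage. Gangliosides start from glucosylceramide, and the order in which GM3 synthase, GD3 synthase and GM2/GD2 synthase act sets which series is made. In the lysosome, glycosidases with their activator proteins take the same chains apart again. Mice that lack GM3 synthase are known to be deaf, with degeneration of the organ of Corti.

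The study sequenced cochlear RNA, from the part of the inner ear that senses sound, at postnatal day 7. Of the 6 libraries, 3 were labelled as knockout of Neu4, a gene for a sialidase that releases sialic acid (replicates 2, 4 and 5), and 3 as wild type (replicates 3, 4 and 5). The labels give no strain, allele or deleted part and do not say how many animals each library holds, so the p-values describe the spread between these libraries, which may be technical. Values are FPKM, fragments scaled by exon length and library size. Levels of different genes can be compared on this scale, but they depend on the length used, which takes in all annotated exons of a gene.

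The values implied 15170973 to 17192293 fragments per library. Neu4 RNA did not check the labels: the libraries labelled knockout held 4, 8 and 6 Neu4 fragments in replicates 2, 4 and 5, and the wild type libraries held 4, 8 and 6 fragments in replicates 3, 4 and 5. Cochlear markers were present in all libraries. The hair cell gene Myo7a was at 5.43 to 6.28 FPKM, and its groups overlapped. Otof was at 7.60 to 8.62 FPKM in the libraries labelled knockout and 6.88 to 7.54 FPKM in wild type, without overlap. The Y-linked gene Ddx3y was above 0 in 1 library labelled knockout and in 2 wild type libraries. Of 18 lists of cell type markers, the summed FPKM of 5 was higher in every library labelled knockout than in every wild type library, and that of 3 was lower. Neutrophil genes summed to 146.5, 144.6 and 82.9 FPKM in knockouts 2, 4 and 5, against 43.7, 71.6 and 30.7 FPKM in wild types 3, 4 and 5. Middle ear epithelium genes summed to 13.1, 23.9 and 104.3 FPKM in the same knockouts, against 396.2, 748.9 and 410.9 FPKM in the wild types. Most of the wild type sums was Bpifa1, at 336.3, 608.5 and 402.2 FPKM in wild types 3, 4 and 5. Bpifa1 was at 0.0777, 8.34 and 93.3 FPKM in knockouts 2, 4 and 5. Foxj1, Reg3g, Muc5b and Scgb3a2 were also lower in every library labelled knockout, while Bpifb1 and Ltf overlapped. The other lists that stood apart were, in sum, higher for supporting cells, strial marginal cells, ligament fibroblasts and B cells, and lower for adipocytes and endothelium. Not every gene followed its sum. The endothelial gene Kdr was higher in every library labelled knockout, at 11.5 to 12.0 FPKM against 10.1 to 10.8 FPKM, and Tek and Emcn overlapped. The supporting cell gene Sox2 was lower in every library labelled knockout, at 6.89 to 8.19 FPKM against 8.21 to 11.1 FPKM. The hair cell sum overlapped, at 63.7 to 70.5 FPKM in libraries labelled knockout and 52.9 to 64.0 FPKM in wild type. All 9 hair cell genes that entered the test below had a log2 fold change above 0, against 56.9% of all genes tested. Of these 9, 3 did not overlap between the groups, where 24.8% of all genes tested did not. In whole tissue, fewer cells of a type and less RNA per cell cannot be told apart, and the part of these cell types in the values below was not tested.

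No gene of sialic acid or ganglioside metabolism passed the test between the groups. Of the 36 entries, 28 reached 1 FPKM in 3 or more libraries and were tested, on log2(FPKM + 1) with limma across all 14072 genes that passed this filter. The count of called entries was 0 of 28 (limma, Benjamini-Hochberg adjusted p under 0.05), where 0.334% of all genes tested were called. It was also 0 of 28 with voom on the fragments recovered from the FPKM values, where 2.75% of all genes were called. At an unadjusted p under 0.05 there were 5 entries with limma (17.9%) and 6 with voom, against 17.6% and 19.5% of all genes. The knockout-labelled and wild type values of 7 entries did not overlap (25%), and those of 24.8% of all genes tested did not. Of these 7, 4 were higher in the libraries labelled knockout and 3 lower, against 15.2% and 9.54% of all genes. These shares are close to the background of the table. The median log2 fold change on the log2(FPKM + 1) scale was 0.03 over the 28 entries and 0.02 over all genes, with 20 of 28 entries above 0 (71.4%) against 56.9% of all genes.

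The libraries limited how large an undetected change could be. For 26 of the 28 entries the 95% interval of the fold, knockout-labelled over wild type (voom), lay between 1.5-fold lower and 1.5-fold higher, and for all 28 it lay within 2-fold. The intervals are not adjusted for the number of genes. The 2 entries that reached past 1.5-fold were St8sia1 and B3galt4, both of low level. The narrowest intervals belonged to the abundant lysosomal genes, such as Hexa at 0.962 (0.898 to 1.03) and Psap at 1.009 (0.939 to 1.08).

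**Figure D1:**
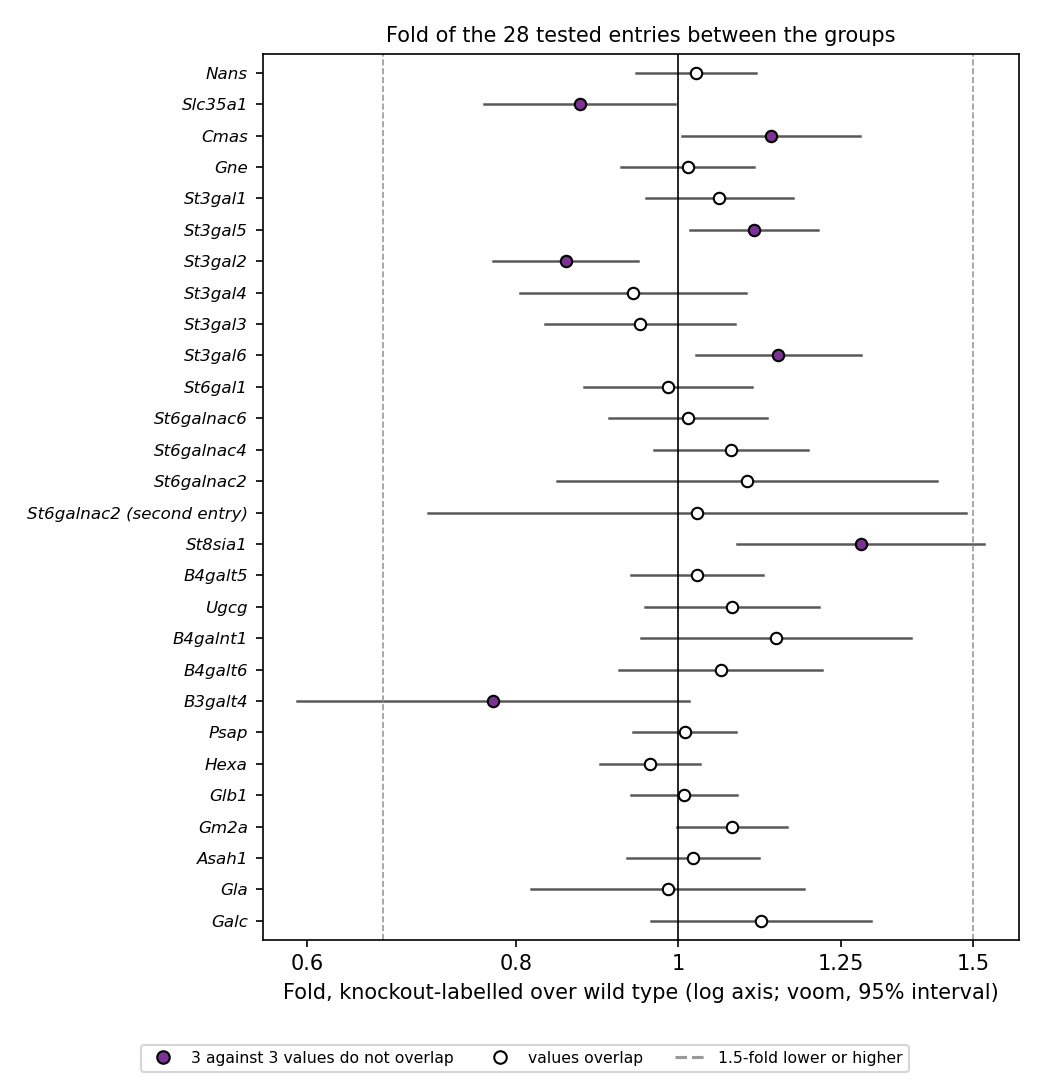
Fold between the groups for the 28 tested entries, ordered by step of the pathway and then by level. Points are the voom fold, libraries labelled knockout over wild type, on a log axis, and lines are the 95% intervals. Filled points mark the 7 genes whose values did not overlap between the groups (3 libraries each), and dashed lines mark 1.5-fold, which only the intervals of St8sia1 and B3galt4 crossed.

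The supply of CMP-sialic acid held 4 genes of moderate level and 2 that were under 1 FPKM in every library. Nans, the sialic acid phosphate synthase, was the highest, at 16.2, 16.2 and 16.6 FPKM in knockouts 2, 4 and 5, against 15.9, 15.4 and 16.8 FPKM in wild types 3, 4 and 5. Its values overlapped and its fold was 1.02 (95% interval 0.943 to 1.11). Gne, the bifunctional epimerase and kinase that controls entry into the pathway, averaged 8.66 ± 0.209 FPKM in libraries labelled knockout and 8.58 ± 0.409 FPKM in wild type (SD, n = 3 each), with a fold of 1.013 (0.924 to 1.11). Both enzymes were among the steadiest entries, with a coefficient of variation over the 6 libraries of 3.11% for Nans and 3.42% for Gne, where the median over all genes tested was 8.69%.

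The 2 later steps of the supply stood apart in opposite directions without passing the test. Cmas, the enzyme that activates sialic acid (chromosome 6, 142756686 to 142775714, GRCm38), was at 10.8, 10.3 and 12.6 FPKM in knockouts 2, 4 and 5, against 9.65, 10.1 and 9.78 FPKM in wild types 3, 4 and 5. Knockout 5 was the highest library and the groups did not overlap, with a fold of 1.14 (1.005 to 1.28, limma adjusted p = 0.306). Without knockout 5 the log2 fold change of Cmas (limma) was 0.087, against 0.169 with all libraries. Slc35a1, the transporter that brings CMP-sialic acid into the Golgi (chromosome 4, 34663257 to 34687438), was at 10.3, 10.6 and 10.9 FPKM in the same knockouts, against 13.1, 11.1 and 12.4 FPKM in the wild types. Here too the groups did not overlap, knockout 5 and wild type 4 being the nearest pair, with a fold of 0.873 (0.765 to 0.996, limma adjusted p = 0.225).

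Cmah and Nanp were close to 0 in every library. Cmah, the hydroxylase that turns the Neu5Ac form of CMP-sialic acid into the Neu5Gc form, had 27, 31 and 51 fragments in knockouts 2, 4 and 5, against 23, 30 and 34 fragments in wild types 3, 4 and 5. The rate ratio of fragments, knockout-labelled over wild type, was 1.28, with a 95% interval of 0.954 to 1.71 that covers counting error only. Nanp, the phosphatase between Nans and Cmas, had 5 fragments in all libraries labelled knockout and 7 in all wild type libraries. Nanp lies almost wholly within Ninl on the same strand, so fragments of the 2 genes may not have been told apart.

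**Figure D2:**
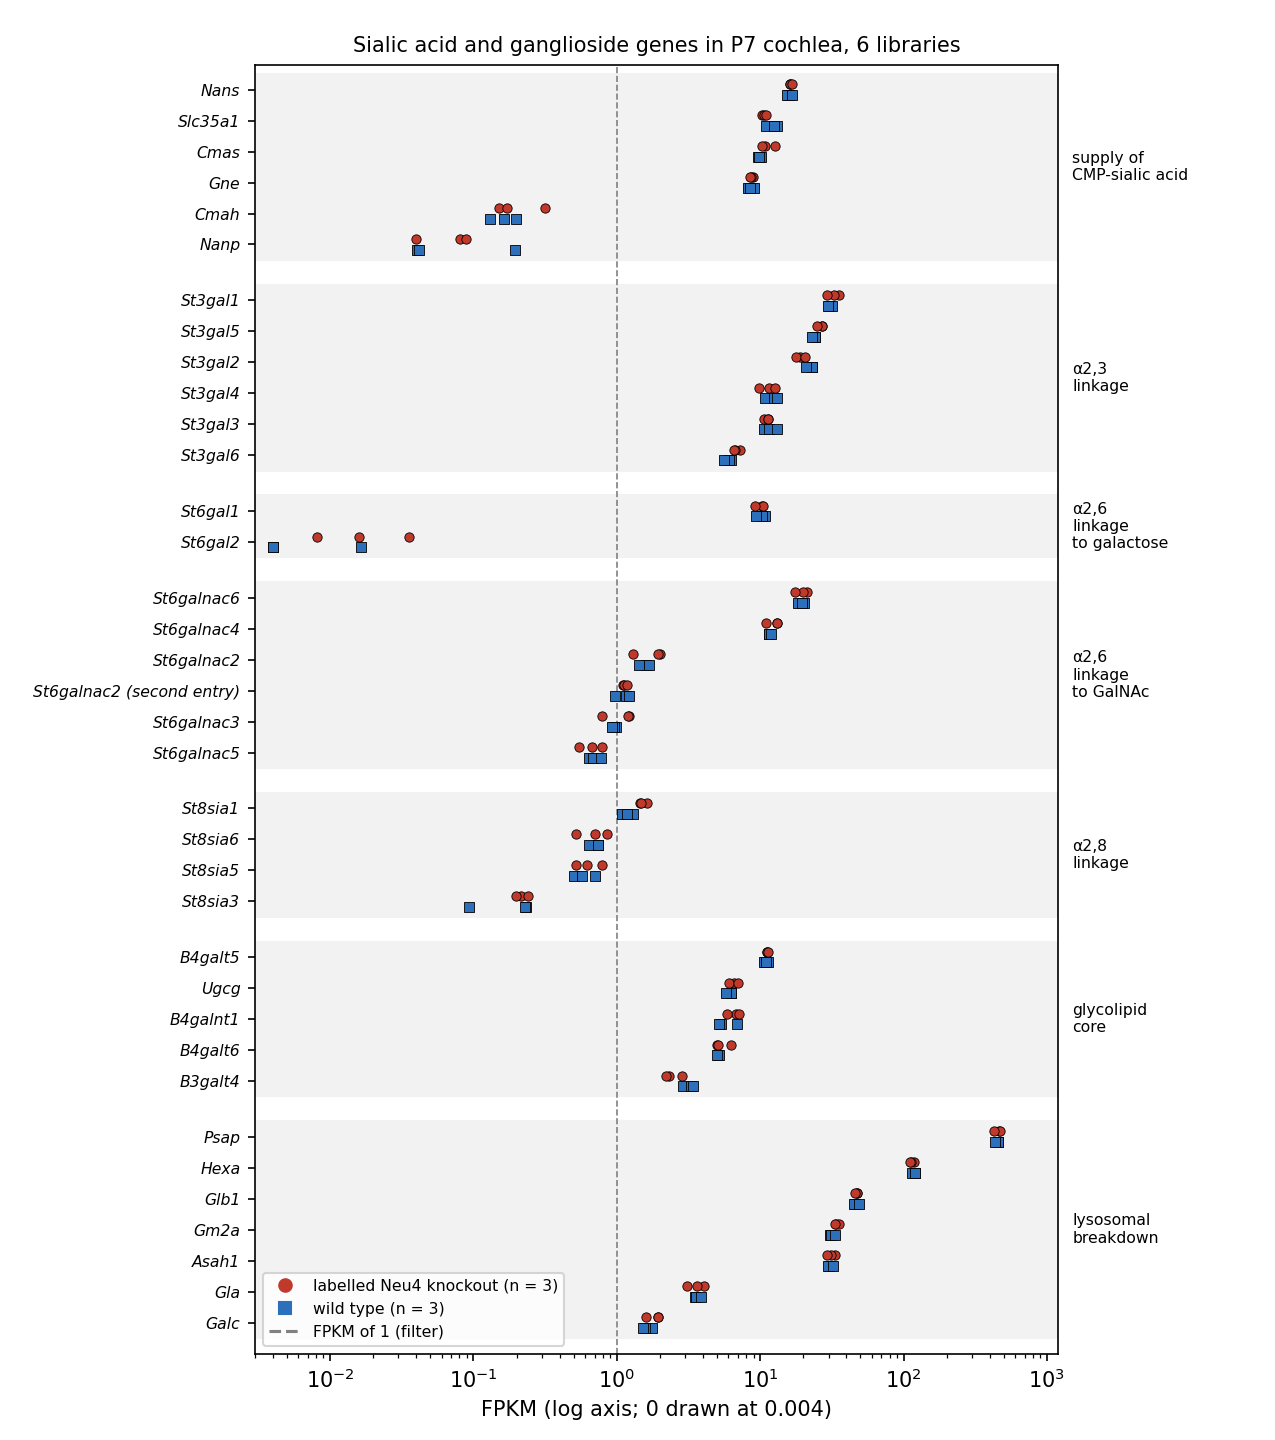
FPKM of all 36 entries in each library on a log axis, grouped by step and ordered by mean level within a step, with circles for the 3 libraries labelled Neu4 knockout above squares for the 3 wild type libraries. The 2 wild type libraries with no St6gal2 fragment are drawn at 0.004. Levels ran from Psap, at 427.0 to 467.6 FPKM, to St6gal2, at no more than 0.0358 FPKM.

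The α2,3 family was the most strongly expressed linkage, and every one of its 6 members passed the filter. St3gal1, which acts on O-linked chains, led with 35.4, 32.5 and 29.2 FPKM in knockouts 2, 4 and 5, against 30.2, 31.8 and 29.8 FPKM in wild types 3, 4 and 5. The groups overlapped, and the fold was 1.06 (0.957 to 1.17). In mean level it was followed by St3gal5, St3gal2, St3gal4, St3gal3 and St3gal6. Over the 6 libraries, the ranges of neighbours in this order were separate except for those of St3gal4 and St3gal3.

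St3gal2 and St3gal5, with opposite directions, had the lowest limma p-values within the family. St3gal5 (GM3 synthase, chromosome 6, 72097592 to 72154571) makes GM3, the first ganglioside. It was at 27.2, 26.9 and 25.0 FPKM in knockouts 2, 4 and 5, against 24.3, 23.995 and 23.2 FPKM in wild types 3, 4 and 5. All 3 libraries labelled knockout were above all 3 wild type libraries, by a fold of 1.11 (1.02 to 1.21, limma adjusted p = 0.204). St3gal2 (chromosome 8, 110919922 to 110972480), which adds the terminal sialic acid of gangliosides such as GD1a, was at 18.8, 17.8 and 20.6 FPKM in the same knockouts, against 23.0, 22.9 and 20.9 FPKM in the wild types. Its libraries labelled knockout were all below wild type, with a fold of 0.857 (0.775 to 0.946, limma adjusted p = 0.171). This was the lowest adjusted p among the 28 entries, and over its alternatives it ran from 0.0943 (voom) to 0.477. As a share of the summed FPKM of the 6 family members, St3gal2 took 17.8% ± 1.52 in libraries labelled knockout and 20.9% ± 1.04 in wild type (SD, n = 3 each). The share of St3gal5 was 24.6% ± 0.814 in libraries labelled knockout and 22.4% ± 0.616 in wild type. The family sum itself was 107.1 ± 1.99 FPKM in libraries labelled knockout and 106.6 ± 1.98 FPKM in wild type.

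St3gal6 was the weakest member. It sialylates N-acetyllactosamine and is known for its part in selectin ligands. St3gal6 (chromosome 16, 58468125 to 58524243) was at 7.28, 6.69 and 6.53 FPKM in knockouts 2, 4 and 5, against 6.29, 6.03 and 5.60 FPKM in wild types 3, 4 and 5. The groups did not overlap, and the fold was 1.148 (1.02 to 1.29, limma adjusted p = 0.246). Its end overlaps Dcbld2 on the opposite strand, whose mean level was 2.70 FPKM, and without a stated strand setting their fragments cannot be told apart there. The same holds for St3gal4 and St6galnac2, which overlap non-coding genes of 1.48 and 2.56 FPKM, and for St6galnac5, which overlaps Pigk (6.26 FPKM), all on the opposite strand. St3gal3 and St3gal4, which act mainly on N-acetyllactosamine chains of glycoproteins, overlapped between the groups, with folds of 0.949 (0.832 to 1.08) and 0.939 (0.804 to 1.098).

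**Figure D3:**
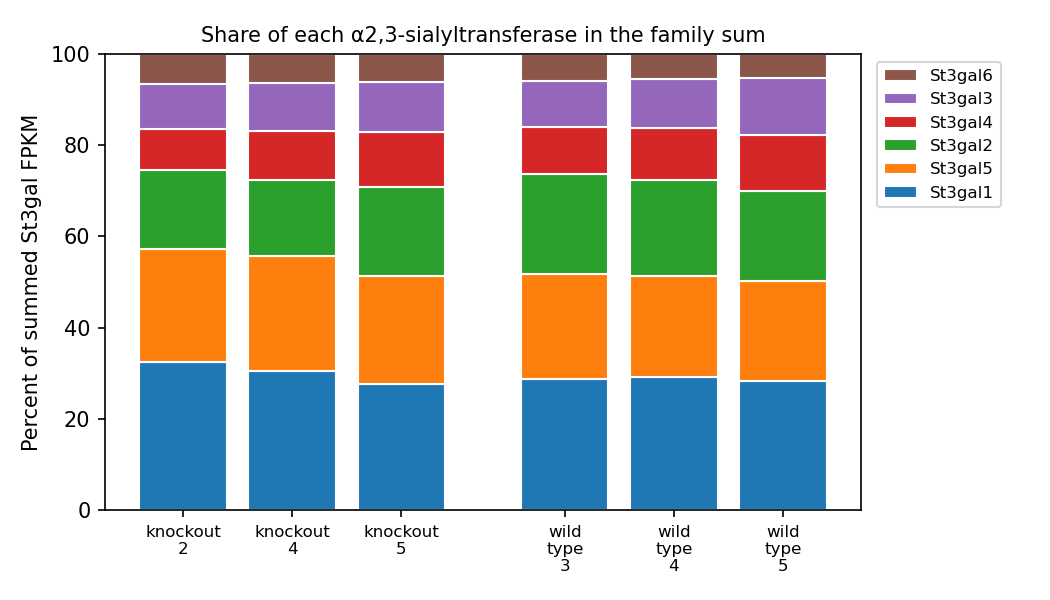
Share of each St3gal gene in the summed FPKM of the 6 family members, by library, with the libraries labelled knockout left of the wild type libraries. St3gal2 took 16.7% to 19.6% in the libraries labelled knockout and 19.8% to 21.9% in wild type.

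Among the α2,6 transferases, St6galnac6, St6galnac4 and St6gal1 had the highest levels, both entries of St6galnac2 also passed the filter, and the other 3 genes did not. St6gal1, which caps galactose of N-linked chains and makes the ligand of the B cell lectin CD22, was at 10.3, 10.46 and 9.28 FPKM in knockouts 2, 4 and 5, against 10.8, 10.4 and 9.35 FPKM in wild types 3, 4 and 5. The groups overlapped, with a fold of 0.986 (0.879 to 1.11). Its relative St6gal2 had 1, 2 and 4 fragments in those knockouts, against 2, 0 and 0 fragments in the wild types, too few to compare. The 2 wild type libraries without a fragment allow no more than 3 fragments each.

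Among the transferases that sialylate GalNAc, St6galnac6 and St6galnac4 stood far above the rest. St6galnac6, which can add sialic acid to gangliosides, was at 21.4, 20.01 and 17.6 FPKM in knockouts 2, 4 and 5, against 20.2, 18.5 and 19.7 FPKM in wild types 3, 4 and 5. St6galnac4, which makes the disialyl form of the T antigen on O-linked chains, was at 13.2, 13.0 and 11.1 FPKM, against 11.5, 11.5 and 11.8 FPKM in the wild types. Knockout 5 was the lowest library for both genes, and the groups overlapped for both, with folds of 1.013 for St6galnac6 (0.909 to 1.13) and 1.07 for St6galnac4 (0.967 to 1.195). The 2 genes are direct neighbours on chromosome 2: in the deposited positions St6galnac6 starts 11 bases after St6galnac4 ends, on the same strand. The first entry of St6galnac2 averaged 1.75 ± 0.387 FPKM in libraries labelled knockout and 1.56 ± 0.128 FPKM in wild type, and its second entry 1.13 ± 0.0361 FPKM in libraries labelled knockout and 1.12 ± 0.133 FPKM in wild type (SD, n = 3 each). Because the 2 entries overlap on the same strand, how fragments were divided between them is uncertain. St6galnac3 and St6galnac5, which form the α-series gangliosides of neural tissue, did not pass the filter. St6galnac3 had 119, 186 and 164 fragments in knockouts 2, 4 and 5, against 147, 147 and 134 fragments in wild types 3, 4 and 5. St6galnac5 had 67, 80 and 50 fragments, against 63, 71 and 74 in the wild types. Their rate ratios were 1.12 (0.977 to 1.28) and 0.965 (0.790 to 1.18), counting error only.

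The α2,8 transferases listed here, which extend one sialic acid with another, were the least expressed linkage family, and only St8sia1 passed the filter. St8sia1 (GD3 synthase, chromosome 6, 142821545 to 142964452) turns GM3 into GD3 and so opens the b-series. It was at 1.46, 1.63 and 1.47 FPKM in knockouts 2, 4 and 5, against 1.30, 1.096 and 1.18 FPKM in wild types 3, 4 and 5. The groups did not overlap, with a fold of 1.29 (1.08 to 1.52), a limma adjusted p of 0.288 and a voom adjusted p of 0.106, in a range of 0.106 to 0.495 over the alternatives. These levels rest on 227, 258 and 209 fragments in the knockouts, against 200, 176 and 176 in the wild types. St8sia1 and Cmas lie 45831 bases apart on chromosome 6, with 1 other gene of the table between them.

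The other 3 members of this family were under 1 FPKM in every library. St8sia6, which acts mainly on O-linked chains, had 110, 92 and 60 fragments in knockouts 2, 4 and 5, against 93, 84 and 91 fragments in wild types 3, 4 and 5, a rate ratio of 0.996 (0.837 to 1.19). St8sia5, which makes the more highly sialylated gangliosides, had 56, 72 and 43 fragments, against 63, 47 and 50 in the wild types, a rate ratio of 1.09 (0.873 to 1.36). St8sia3, a transferase of brain, had 42, 39 and 43 fragments, against 18, 47 and 43 in the wild types. Wild type 3 was the low library, and the ratio was 1.17 (0.897 to 1.53). These intervals cover counting error only.

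GM3, the product of St3gal5, is the substrate of both B4galnt1, which leads to the a-series, and St8sia1, which leads to the b-series. The FPKM of B4galnt1 over that of St8sia1 was 4.66, 4.34 and 3.99 for knockouts 2, 4 and 5, set against 4.14, 6.30 and 4.36 for wild types 3, 4 and 5. B4galnt1 was above St8sia1 in all 6 libraries, and the ratio overlapped between the groups. The FPKM of St3gal5 over that of St8sia1 was 18.7, 16.5 and 16.9 for knockouts 2, 4 and 5, set against 18.7, 21.9 and 19.7 for wild types 3, 4 and 5, so the groups did not overlap but nearly touched. The 250 bases before the RefSeq start of these 2 genes (GRCm38.p6) are shown because the genes act in consecutive steps and differ widely in level. They are written 5′ to 3′ on the strand of the gene, with each GGGCGG, the core of a GC box, or its complement in capitals.
St3gal5, chr6:72097358-72097607, plus strand: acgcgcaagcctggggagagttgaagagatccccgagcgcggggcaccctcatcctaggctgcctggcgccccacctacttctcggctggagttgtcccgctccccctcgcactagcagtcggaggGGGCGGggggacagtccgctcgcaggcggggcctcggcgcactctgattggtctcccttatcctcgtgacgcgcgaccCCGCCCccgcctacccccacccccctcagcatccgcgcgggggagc
St8sia1, chr6:142964453-142964702, minus strand: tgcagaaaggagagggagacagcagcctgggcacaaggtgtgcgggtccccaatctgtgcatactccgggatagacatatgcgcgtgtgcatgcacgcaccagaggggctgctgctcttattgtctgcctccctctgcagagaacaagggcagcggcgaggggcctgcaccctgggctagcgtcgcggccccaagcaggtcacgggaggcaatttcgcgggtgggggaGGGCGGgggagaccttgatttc
The St3gal5 window held 2 matches and the St8sia1 window 1. Of the 30 windows that RefSeq gives for 24 of the genes, 16 held a match on either strand (53.3%), against 32.7% of the 32851 windows of that length for all genes. A match is a description of the letters, not of binding.

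The glycolipid core genes were of low to moderate level, with coefficients of variation over the 6 libraries of 2.65% for B4galt5 to 17.2% for B3galt4. B4galt5, the main lactosylceramide synthase, was at 11.3, 11.2 and 11.3 FPKM in knockouts 2, 4 and 5, against 10.6, 11.4 and 10.96 FPKM in wild types 3, 4 and 5. It was the steadiest of the 28 tested entries, and B3galt4 the least steady. Ugcg, which makes glucosylceramide, was at 6.56, 6.11 and 7.01 FPKM in the same knockouts, against 6.22, 6.31 and 5.74 FPKM in the wild types. The groups overlapped for both, with folds of 1.03 (0.938 to 1.12) and 1.08 (0.9553 to 1.21). B4galt6, the second lactosylceramide synthase, was at 5.43 ± 0.685 FPKM in libraries labelled knockout and 5.09 ± 0.0532 FPKM in wild type (SD, n = 3 each). B4galt5 exceeded it 1.82- to 2.26-fold over the 6 libraries.

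The next enzymes of the core made the complex gangliosides. B4galnt1 (GM2/GD2 synthase) was at 6.79, 7.08 and 5.88 FPKM in knockouts 2, 4 and 5, against 5.37, 6.90 and 5.14 FPKM in wild types 3, 4 and 5. Wild type 4 lay among the knockout values, so the groups overlapped, and the fold was 1.14 (0.9502 to 1.38). B3galt4 (GM1 synthase, chromosome 17, 33949909 to 33951488) was at 2.85, 2.32 and 2.21 FPKM in the same knockouts, against 2.88, 3.28 and 3.41 FPKM in the wild types. All libraries labelled knockout were below all wild type libraries, although knockout 2 and wild type 3 held 75 fragments each. Its fold was 0.775 (0.592 to 1.02), with a limma adjusted p of 0.208. On a log scale this fold was the farthest from 1 of all tested entries, with St8sia1 close behind. The log2 fold changes (voom) were -0.368 for B3galt4 and 0.362 for St8sia1. B3galt4 is short and of low level, with 53 to 89 fragments per library.

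**Figure D4:**
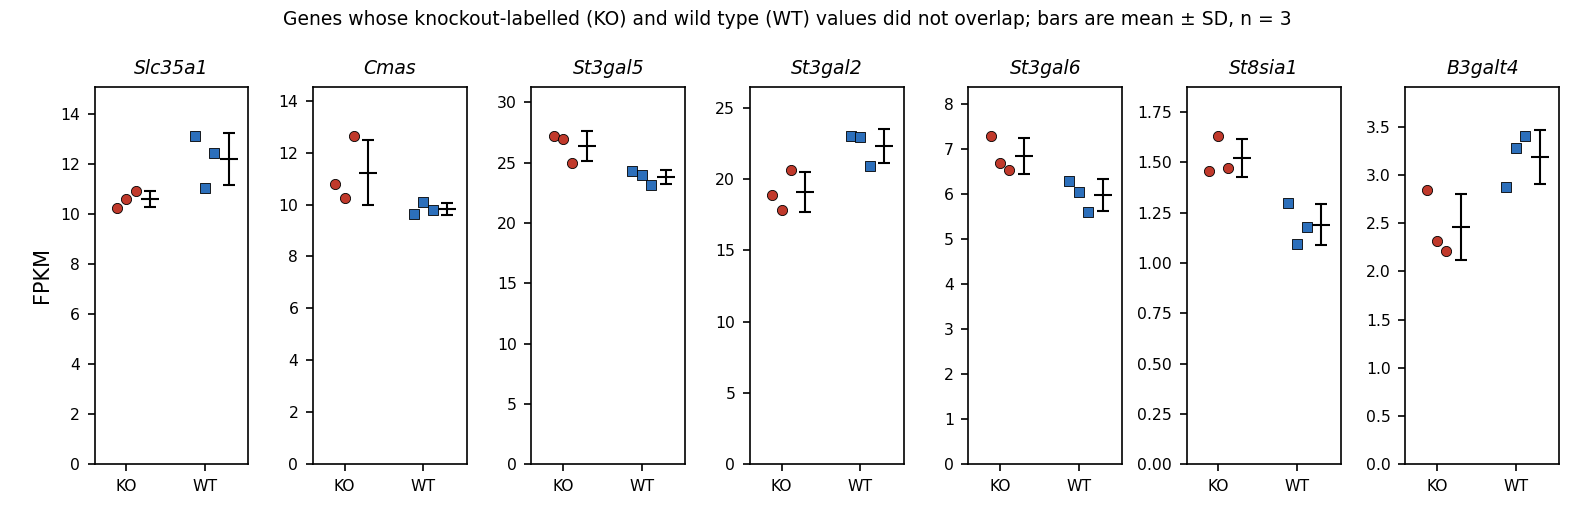
FPKM of the 7 genes whose libraries labelled knockout (circles, left) and wild type libraries (squares, right) did not overlap, with the mean ± SD of 3 libraries beside the points and each axis starting at 0. Cmas, St3gal5, St3gal6 and St8sia1 were higher in the libraries labelled knockout, and Slc35a1, St3gal2 and B3galt4 were lower, and 0 of the 7 passed the test.

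The genes of lysosomal breakdown were the most abundant. Of the 7, 0 separated the groups, where 24.8% of all genes tested did, and the difference in share was not tested. Psap, which encodes the precursor of the saposin activators, was at 464.1, 467.6 and 427.0 FPKM in knockouts 2, 4 and 5, against 456.9, 456.9 and 436.2 FPKM in wild types 3, 4 and 5. It ranked 43 of the 30462 genes by mean level. Hexa, the α subunit of β-hexosaminidase, which is lost in Tay-Sachs disease, was at 117.6, 113.4 and 110.4 FPKM, against 120.7, 115.0 and 120.3 FPKM in the wild types. Replicate 5 was the lowest library of each group for Psap, and the lowest knockout for Hexa. Glb1, the β-galactosidase that degrades GM1, averaged 46.7 ± 0.935 FPKM in libraries labelled knockout and 46.5 ± 1.87 FPKM in wild type (SD, n = 3 each). Tmppe, with a mean level of 3.36 FPKM, lies within Glb1 on the same strand, so their fragments may not have been told apart there. The acid ceramidase gene Asah1 averaged 31.1 ± 2.02 FPKM in libraries labelled knockout and 30.6 ± 1.38 FPKM in wild type. Gm2a, the activator that lifts GM2 out of the membrane for Hexa, was at 34.2 ± 1.23 FPKM in libraries labelled knockout and 31.9 ± 1.22 FPKM in wild type. Wild type 5, at 33.2 FPKM, lay above knockout 5, at 33.0 FPKM, and the fold of Gm2a was 1.08 (0.998 to 1.16). The coefficients of variation of Psap, Hexa, Glb1, Asah1 and Gm2a were 2.85% to 5.09%.

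Galc and Gla were far lower. Galc was below Gla in FPKM although it held more fragments in every library, such as 398 against 169 in knockout 2. Its exon length is 14879 bases, against 3265 bases for Gla. Galc, which degrades the myelin lipid galactosylceramide, was at 1.83 ± 0.193 FPKM in libraries labelled knockout and 1.63 ± 0.128 FPKM in wild type (SD, n = 3 each), a fold of 1.12 (0.963 to 1.30). Gla, the α-galactosidase that removes the end of globo-series lipids, is X-linked and was at 3.11, 4.04 and 3.63 FPKM in knockouts 2, 4 and 5, against 3.49, 3.58 and 3.85 FPKM in wild types 3, 4 and 5. Its groups overlapped, with a fold of 0.986 (0.817 to 1.19). The 3 libraries with Ddx3y, a marker of males, had 3.11 to 3.58 FPKM of Gla and the 3 without it had 3.63 to 4.04 FPKM. With sex as a covariate the adjusted p of Gla between the labels was 0.640 (limma), the lowest of the alternatives, which reached 0.979.

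Promoter windows of lysosomal genes were searched for CACGTG, the centre of the element that the lysosomal regulator TFEB binds. Of the 6 lysosomal genes with a RefSeq window, Glb1 and Gla held it, and 3 of the 30 windows of all genes described here did (10%), against 6.02% of all windows. The 2 are shown in the same form, with CACGTG, which reads the same on both strands, in capitals.
Glb1, chr9:114400828-114401077, plus strand: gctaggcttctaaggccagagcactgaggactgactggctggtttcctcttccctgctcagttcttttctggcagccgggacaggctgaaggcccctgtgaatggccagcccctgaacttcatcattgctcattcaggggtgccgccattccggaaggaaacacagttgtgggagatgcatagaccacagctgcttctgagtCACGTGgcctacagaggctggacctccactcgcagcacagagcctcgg
Gla, chrX:134601006-134601255, minus strand: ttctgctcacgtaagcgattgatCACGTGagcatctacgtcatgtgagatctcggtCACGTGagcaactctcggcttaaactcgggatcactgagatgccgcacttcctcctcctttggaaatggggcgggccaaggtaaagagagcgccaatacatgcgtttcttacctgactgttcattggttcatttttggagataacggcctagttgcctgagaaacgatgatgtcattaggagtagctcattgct
The Gla window held 2 matches and the Glb1 window 1, and their folds were 0.986 and 1.008. Absence of the letters in the other windows says nothing of the factor.

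Genes around this pathway were also at the background. Of 60 further genes in 7 lists, 55 were tested and 0 were called with limma, where 0.334% of all genes tested were. At an unadjusted p under 0.05 (limma) there were 8 (14.5%), against 17.6% of all genes. The groups of 25.5% did not overlap, against 24.8% of all genes. With voom 1 of the 55 was called, where 2.75% of all genes were. Their median log2 fold change was 0.0033 on the log2(FPKM + 1) scale.

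The 1 gene called with voom was Gcnt1, the branching enzyme of core 2 O-linked chains, in the list of genes that build acceptor glycans. Gcnt1 was at 9.95, 8.87 and 8.16 FPKM in knockouts 2, 4 and 5, against 7.02, 6.20 and 6.04 FPKM in wild types 3, 4 and 5. The groups did not overlap, and the fold was 1.41 (1.23 to 1.61), with a voom adjusted p of 0.0219 and a limma adjusted p of 0.0949. Over the alternatives its adjusted p ran from 0.0219 to 0.238, and voom was the 1 alternative in which it was below the threshold. In this list 5 of 9 genes did not overlap between the groups, where 24.8% of all genes tested did not, and no test of the list was made. Besides Gcnt1, these included Mgat5, which makes branched N-linked chains, at 7.95 ± 0.191 FPKM in libraries labelled knockout and 6.80 ± 0.298 FPKM in wild type. C1galt1, which makes the core 1 chain, was at 6.64 ± 0.281 FPKM in libraries labelled knockout and 5.67 ± 0.152 FPKM in wild type. On the other side were Mgat1, which starts complex N-linked chains, at 27.97 ± 0.652 FPKM in libraries labelled knockout and 31.7 ± 0.839 FPKM in wild type, and the chaperone gene C1galt1c1, at 10.7 ± 0.599 FPKM in libraries labelled knockout and 11.9 ± 0.169 FPKM in wild type (SD, n = 3 each). None of these 4 was called by either tool.

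In the remaining lists 0 genes were called by either tool. Col4a3bp, the ceramide transfer protein, averaged 5.39 ± 0.216 FPKM in libraries labelled knockout and 4.49 ± 0.246 FPKM in wild type (SD, n = 3 each). Its groups did not overlap, with a limma adjusted p of 0.158, while those of the ceramide synthase gene Cers4 did, at 2.31 ± 0.333 FPKM in libraries labelled knockout and 2.54 ± 0.178 FPKM in wild type. A4galt, which diverts lactosylceramide to the globo series, was at 6.94 ± 0.302 FPKM in libraries labelled knockout and 8.56 ± 0.903 FPKM in wild type. Every library labelled knockout was below every wild type library for A4galt (limma adjusted p = 0.163), whereas Sgms2, a sphingomyelin synthase, overlapped, at 1.72 ± 0.331 FPKM in libraries labelled knockout and 1.11 ± 0.558 FPKM in wild type. Scarb2, a lysosomal membrane protein, overlapped, at 14.9 ± 0.693 FPKM in libraries labelled knockout and 13.6 ± 0.824 FPKM in wild type.

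Among sialidases and genes of sialic acid re-use, the largest log2 fold change of the 9 tested genes was that of Neu3, the plasma membrane sialidase that acts on gangliosides. Neu3 was at 1.85 ± 0.156 FPKM in libraries labelled knockout and 1.49 ± 0.172 FPKM in wild type (SD, n = 3 each), and the groups did not overlap (limma adjusted p = 0.320). Casd1, which acetylates sialic acid, overlapped, at 10.7 ± 1.07 FPKM in libraries labelled knockout and 9.46 ± 0.782 FPKM in wild type. In the supply of UDP-sugars, Pgm3 was at 6.68 ± 0.527 FPKM in libraries labelled knockout and 5.91 ± 0.337 FPKM in wild type, and Gfpt2 at 6.57 ± 1.147 FPKM in libraries labelled knockout and 7.16 ± 0.546 FPKM in wild type. Both overlapped between the groups, as did St8sia2, a transferase that makes polysialic acid, at 2.61 ± 0.113 FPKM in libraries labelled knockout and 2.79 ± 0.291 FPKM in wild type. The other polysialyl transferase gene, St8sia4, was under the filter and was not tested. It was at 0.453 ± 0.0325 FPKM in libraries labelled knockout and 0.340 ± 0.0444 FPKM in wild type, without overlap.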

How the data were processed

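RNA of the cochlea was measured in 6 libraries. The authors deposited FPKM values per gene, 1 column per library, per the file headers. The build is GRCm38 per the submitters' processing notes. The sources used here name no strand setting. FPKM times the union exon length of GENCODE M21 was a whole number of fragments, within 0.01 fragment plus a relative 1e-06, in all libraries for 29933 genes (98.3%). Depth follows from these steps.

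Genes that reached 1 FPKM in 3 or more libraries entered the test, on log2(FPKM + 1), which understates folds of low genes, with limma (eBayes with a trend, two-sided) and Benjamini-Hochberg adjustment over all genes tested. Folds with 95% intervals come from voom (limma) on the fragments, an alternative test. Rate ratios of genes under the filter have exact binomial intervals on summed fragments. Alternatives were scaling, pseudocount, filters, trend, weights, a replicate block, sex, and the omission of single libraries.

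The genes, lists and marker lists were chosen with earlier results of these data known. Values in every library are given for the genes whose groups did not overlap and the 2 highest of each step, and fragments for genes under the filter; other lists give the 2 largest changes and any called gene. For the other lysosomal genes, 1 of these is not reported here. Gla, B4galnt1, Gne, Mgat1, C1galt1, C1galt1c1, St8sia4, Kdr, Tek, Emcn and Sox2 were described after their values were seen. Fits ran in R 4.3.3 with limma 3.58.1, summaries in Python 3.11.15 with pandas 2.3.3, numpy 2.4.6 and scipy 1.17.1, and figures with matplotlib 3.10.9.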

Additional observations from a re-analysis of the deposited data

How the results depend on the processing

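Over the 16 alternatives, 0 entries were called in any, and their lowest adjusted p was 0.0943 (St3gal2, voom). The number of entries at an unadjusted p under 0.05 ran from 1 (replicate block) to 7 (library weights). The number of all genes called, 47, was 19 with no filter, 103 with an FPKM of at least 5, 19 without the trend, 104 with library weights, 24 with sex as a covariate, 22 with the replicate block and 380 with voom, and 12 to 105 with 1 library left out; the cause was not tested. The replicate numbers 4 and 5 are shared by the groups, but the labels give no pairing: their deviations correlated at 0.141 and 0.1498, and the block called 0 entries.

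Of the 28 log2 fold changes, 18 kept their sign in every alternative run and 10, all small, changed it, which includes none of the 7 that did not overlap. Median-ratio scaling gave -0.0090 for Gne, -0.012 for St6galnac6, -0.018 for Glb1, -0.017 for Psap and -0.0018 for Asah1, and quantile normalization -0.0063 for Gne and -0.022 for the second St6galnac2 entry. Sex as a covariate gave 0.013 for St6gal1, -0.0090 for the second St6galnac2 entry and -0.0048 for Glb1. The replicate block gave -0.032 for Gne, 0.00049 for St6gal1, -0.021 for St6galnac6, -0.012 for Glb1, -0.033 for Asah1 and 0.035 for Gla. With 1 library left out the ranges were -0.014 to 0.046 for Gne, -0.16 to 0.0050 for St3gal4, -0.078 to 0.025 for St6gal1, -0.036 to 0.053 for the second St6galnac2 entry, -0.047 to 0.085 for St6galnac6, -0.013 to 0.12 for B4galt6, -0.016 to 0.038 for Glb1, -0.015 to 0.050 for Psap, -0.022 to 0.069 for Asah1 and -0.088 to 0.059 for Gla. Depth limits the 8 entries under the filter, where 0 to 186 fragments per library were counted.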
